A study of Mus musculus with 12 samples.

Results

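Acta1, Ckm and Des encode skeletal muscle alpha-actin, the muscle form of creatine kinase and the intermediate filament protein desmin, which differentiating muscle cells make in large amounts. Their loci were examined here as 3 windows of the mouse genome, build mm9, chosen by gene name and position and not by the height or number of peaks: chromosome 8 from 126395000 to 126440000 for Acta1, chromosome 7 from 19975000 to 20030000 for Ckm, and chromosome 1 from 75335000 to 75385000 for Des. The windows were nonetheless chosen with earlier results of these data known. Of the 134900 peaks in 6 lists, 55 overlapped a window, and all 55 lay wholly inside one. Des held 36 of them, Acta1 held 12 and Ckm held 7.

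The cells were C2C12, a mouse myoblast line, after 48 h (day 2) in DMEM with 25 mM glucose and 2% horse serum, which starts myogenic differentiation. The S2101 cells had the LSD1 inhibitor S2101 at 10 µM in that medium and the vehicle cells had the vehicle alone. Each list is the peaks of 1 chromatin immunoprecipitation library, so each mark and treatment has 1 library of 1 cell line, no difference between treatments has a replicate check, and no p-value is given. H3K4me1 and H3K4me2 came from experiment 1 and H3K4me3 from experiment 2, so that mark and experiment cannot be told apart. The S2101 lists hold 20664 H3K4me1, 24444 H3K4me2 and 14324 H3K4me3 peaks, and the vehicle lists 40432, 21447 and 13589 peaks of these marks. The reads behind them are not given, so depth is unknown and its part in any difference was not tested. Peak lists hold no transcript levels, and the labelled cell type could not be checked against markers.

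LSD1 is the demethylase Kdm1a, which takes methyl groups off mono- and dimethylated lysine 4 of histone H3 and cannot act on the trimethylated form. H3K4me3 sits at active promoters, H3K4me1 sits at enhancers and beside promoters, and H3K4me2 is found at both. In muscle, the MyoD family binds E-boxes in the control regions of all these genes, with MEF2 and serum response factor as common partners. Alpha-actin forms the thin filament of the sarcomere, muscle creatine kinase regenerates ATP beside the contractile apparatus, and desmin ties myofibrils at the Z-disc to each other and to the membrane.

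The promoter sequences below are each of 300 bases and run from 250 bases before the annotated start to 50 after. They are shown because the windows are named for these genes, and because the sequences hold E-boxes, the letters that the MyoD family binds. They are RefSeq sequences of build GRCm38.p6, at chr8:123894726-123895025 on the minus strand for Acta1, chr7:19410844-19411143 on the plus strand for Ckm and chr1:75360042-75360341 on the plus strand for Des. The peaks are in another build, so a peak cannot be laid over these bases here. Capitals mark E-boxes (CANNTG) and the CArG box, the site of serum response factor, searched on both strands:

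Acta1: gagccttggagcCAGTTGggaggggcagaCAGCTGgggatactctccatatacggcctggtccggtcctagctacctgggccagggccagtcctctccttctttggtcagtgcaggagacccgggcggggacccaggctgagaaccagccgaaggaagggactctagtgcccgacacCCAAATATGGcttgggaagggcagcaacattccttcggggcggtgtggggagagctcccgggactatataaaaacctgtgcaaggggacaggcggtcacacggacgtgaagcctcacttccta

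Ckm: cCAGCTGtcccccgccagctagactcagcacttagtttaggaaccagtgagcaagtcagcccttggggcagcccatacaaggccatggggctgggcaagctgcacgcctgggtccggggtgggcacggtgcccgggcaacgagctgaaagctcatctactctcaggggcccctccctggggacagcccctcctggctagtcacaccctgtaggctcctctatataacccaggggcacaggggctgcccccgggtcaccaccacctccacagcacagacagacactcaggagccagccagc

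Des: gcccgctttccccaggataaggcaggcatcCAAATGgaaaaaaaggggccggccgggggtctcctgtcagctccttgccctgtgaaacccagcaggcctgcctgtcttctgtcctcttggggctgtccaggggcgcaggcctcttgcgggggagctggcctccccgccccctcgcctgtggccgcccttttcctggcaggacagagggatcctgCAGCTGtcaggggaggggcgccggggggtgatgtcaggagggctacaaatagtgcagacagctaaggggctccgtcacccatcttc

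All 3 promoters held an E-box of the form CAGCTG, at position −221 of Acta1, −249 of Ckm and −36 of Des, counted to the first base from the start site. That form was in 16.3% of the 32851 promoters of the same length in the table, and the wider CANNTG in 72.3%. Acta1 had 2 E-boxes of either form, Ckm 1 and Des 2. A CArG box was found in Acta1 alone among the 3, at −73, and is in 1.63% of all promoters. No MEF2 box was found in these windows of sequence, and 3.19% of all promoters hold one. GC content was 61.0% in Acta1, 64.7% in Ckm and 65.3% in Des, against a median of 52.7%. CpG dinucleotides numbered 12, 7 and 11 in that order of genes, against a median of 7. In sequence the promoters were therefore GC-rich, with a CpG count at the median in Ckm and above it in the others. A match is a description of the letters and not of binding.

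Over the 3 loci together, S2101 cells had fewer bases under H3K4me1 and H3K4me2 peaks and more under H3K4me3 peaks than vehicle cells. H3K4me1 covered 6227 bp with S2101 and 11775 bp with vehicle, a ratio of 0.529, where the whole lists gave 0.347. H3K4me2 covered 5833 bp with S2101 and 13979 bp with vehicle, a ratio of 0.417 against 0.467 for the whole lists. H3K4me3 covered 10896 bp with S2101 and 7814 bp with vehicle, a ratio of 1.39 against 1.10. Counting only peaks with a score of 200 or more gave ratios of 0.317 for H3K4me1 and 0.271 for H3K4me2. The whole-list ratios above are over peaks of all scores. At that score the median ratio over 50 kb stretches of the genome with a vehicle peak was lower too. It went from 0.187 to 0 for H3K4me1 and from 0.456 to 0.419 for H3K4me2. The loci differed among themselves: the H3K4me2 ratio was 0 at Acta1, 0.783 at Ckm and 0.494 at Des, though at that score the Ckm ratio was 0 too (0 bp with S2101 and 886 bp with vehicle). S2101 H3K4me3 exceeded vehicle by 1114 bp at Acta1, 1115 bp at Ckm and 853 bp at Des, and the Ckm difference was 0 bp with lists of equal length or with that score. The Des difference was 171 bp with that score.

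**Figure D1:**
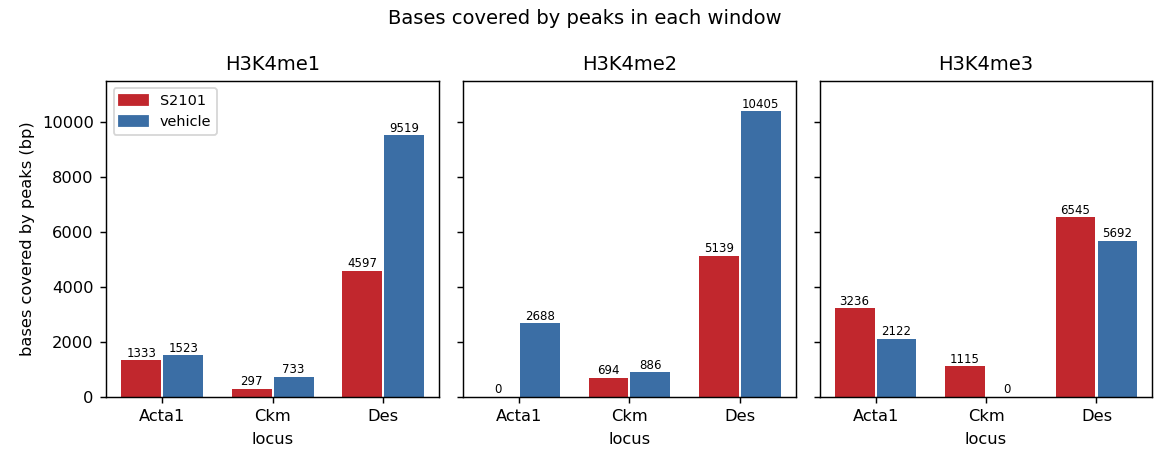
Bases covered by peaks (bp, vertical axis from 0) in the windows of Acta1, Ckm and Des, 1 panel per mark, with S2101 bars left of vehicle bars and 1 library behind each bar. H3K4me1 and H3K4me2 bars are lower with S2101 at every locus, and H3K4me3 bars are higher with S2101 at every locus.

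**Figure D2:**
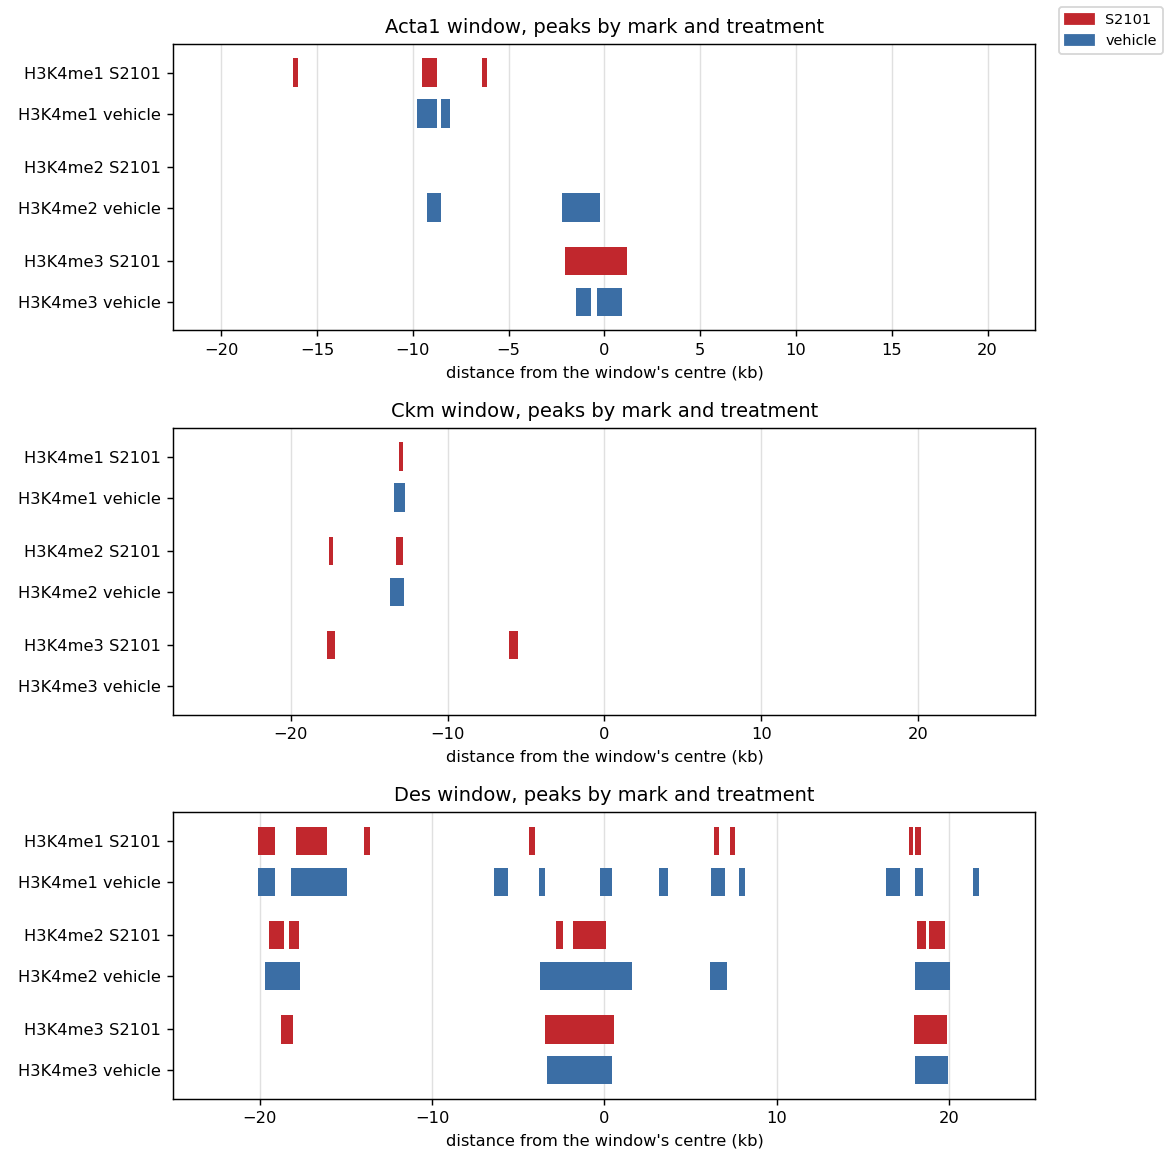
Positions of all 55 peaks, drawn to scale as distance from the centre of each window (kb), with S2101 above vehicle for each mark. Acta1 has no S2101 H3K4me2 peak, Ckm has no vehicle H3K4me3 peak, and Des carries all marks in both treatments.

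Acta1 showed H3K4me3 over a longer stretch with S2101 and no H3K4me2 there. S2101 cells had a single H3K4me3 peak at 126415419 to 126418654 (3236 bp, score 1347.88). Vehicle cells had 3 peaks in the same place, at 126416035 to 126416825 (791 bp, score 200.38), 126417091 to 126417611 (521 bp, score 125.71) and 126417623 to 126418432 (810 bp, score 199.01). The S2101 peak covered every base of these 3, filled the gaps of 265 bp and 11 bp between them, and reached 616 bp further at the low-coordinate edge and 222 bp further at the other. Covered length was 1.52 times that of vehicle, and the span between outer edges 1.35 times. Scores are the authors' own and rank peaks only within a list: 28.0% of S2101 peaks scored lower than this one, whereas 8.59%, 3.07% and 8.51% of vehicle peaks scored lower than the 3 vehicle ones, in order of position.

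Few other H3K4me3 peaks in the lists met limits that were set after this peak had been seen. S2101 peaks that overlapped 3 or more vehicle peaks made up 0.119% of the list, and among S2101 peaks with a counterpart (an overlap of at least 1 bp with the other treatment's peak) 3.66% were at least 1.5 times as long as the vehicle bases under them. In 50 kb stretches of the genome with a vehicle H3K4me3 peak, 4.36% had at least 1.5 times the vehicle length with S2101, and 96.0% had a lower ratio than Acta1. The locus was picked with results of these data known, and the limits of 3 peaks and 1.5 times follow its own form, so its place in that spread is a description. The shares are over peaks or stretches of all scores and not over weakly scored ones alone. The vehicle peaks scored near the low end of their list, and the part of the calling threshold in their splitting was not tested. With peaks of score 200 or more alone, Acta1 had 3236 bp with S2101 and 791 bp with vehicle, a ratio of 4.09. That cutoff fell between vehicle peaks of score 200.38 (791 bp, kept) and 199.01 (810 bp, left out), so the ratio depends on its exact place.

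No S2101 H3K4me2 peak overlapped the Acta1 window, whereas vehicle H3K4me2 covered 2688 bp of it. The wider vehicle peak ran from 126415288 to 126417282 (1995 bp, score 422.45) and the narrower from 126408252 to 126408944 (693 bp, score 152.02). The nearest S2101 H3K4me2 peak lay 24094 bp from the narrower and 31130 bp from the wider. The wider one lay over H3K4me3 in both treatments, 1864 bp of it with S2101 and 983 bp with vehicle. A 50 kb stretch with a vehicle H3K4me2 peak held none with S2101 in 17.5% of cases, and 7.90% of S2101 H3K4me3 peaks lay over vehicle H3K4me2 but no S2101 H3K4me2, the pattern of the Acta1 peak. The wider peak stood near the middle of its own list by score, as 45.0% of vehicle H3K4me2 peaks scored lower and 75.3% were narrower.

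H3K4me1 at Acta1 lay apart from H3K4me3, on the low-coordinate side. S2101 peaks stood at 126401248 to 126401516 (269 bp, score 111.89), 126407975 to 126408275 (301 bp, score 117.78), 126408288 to 126408774 (487 bp, score 290.57) and 126411113 to 126411388 (276 bp, score 110.44). Vehicle peaks stood at 126407722 to 126408777 (1056 bp, score 563.16) and 126408983 to 126409449 (467 bp, score 298.03). The middle pair of S2101 peaks fell entirely within the first vehicle peak, the outer pair had no counterpart, and the second vehicle peak had none either. Covered bases came to 1333 with S2101 and 1523 with vehicle, of which 788 were shared. The ratio of 0.875 was above that of 95.1% of 50 kb stretches with vehicle H3K4me1. It was 0.320 with peaks of score 200 or more (487 bp with S2101 and 1523 bp with vehicle), and the difference of −190 bp became −659 bp with windows 10 kb longer at each edge and −459 bp with windows 10 kb shorter. With S2101 these H3K4me1 peaks had no H3K4me2, while in vehicle cells the narrower H3K4me2 peak overlapped H3K4me1 by 526 bp. The H3K4me1 peak nearest to the S2101 H3K4me3 peak was 4030 bp from it. From 126418654 to the window's end no list had a peak.

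**Figure D3:**
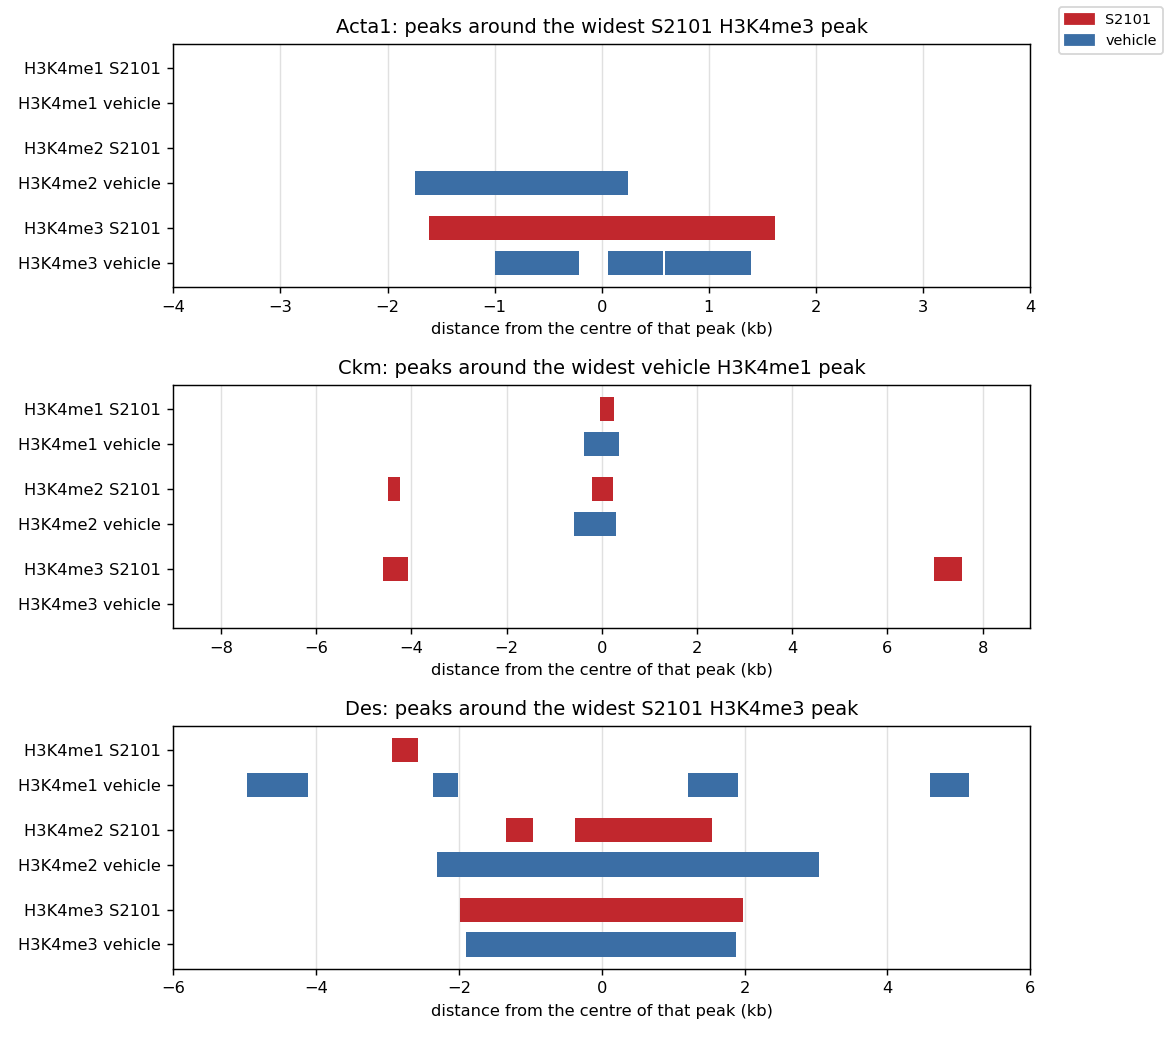
Peaks around the widest S2101 H3K4me3 peak at Acta1 and Des, and around the vehicle H3K4me1 peak at Ckm, as distance from that peak's centre (kb), S2101 above vehicle. At Acta1 the 3236 bp S2101 peak spans 3 vehicle peaks, and at Des S2101 H3K4me2 covers 2306 bp of the 5350 bp vehicle domain.

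Ckm was sparsely marked, and its H3K4me3 was listed with S2101 only, at low scores. Those S2101 peaks lay at 19984809 to 19985337 (529 bp, score 133.13) and at 19996386 to 19996971 (586 bp, score 133.08), and together covered 1115 bp; vehicle H3K4me3 covered 0 bp of the window. Only 3.92% and 3.91% of the S2101 list scored lower. Over the whole list, 1207 S2101 H3K4me3 peaks had no vehicle counterpart, with a median width of 622 bp and a median score of 151, so the Ckm peaks were slightly narrower and lower than such peaks at the median. Of 50 kb stretches with S2101 H3K4me3, 5.36% held none with vehicle. The difference depended on the list: with the S2101 list cut to its highest-scoring 13589 peaks, the length of the vehicle list, Ckm had 0 bp in either treatment, and likewise at a score of 200 or more.

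Neither Ckm H3K4me3 peak lay over a vehicle peak of any mark, which was so for 21.4% of S2101 H3K4me3 peaks without a counterpart when H3K4me1 and H3K4me2 were looked up. Within the first of them lay an S2101 H3K4me2 peak, at 19984918 to 19985173 (256 bp, score 128.13), also without a vehicle counterpart. The second had no other mark. The nearest vehicle H3K4me3 peaks were 16415 bp and 27992 bp away, outside the window.

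The remaining Ckm peaks formed a site of H3K4me1 and H3K4me2 listed in both treatments, of which the vehicle peaks alone have a score of 200 or more. H3K4me1 stood at 19989367 to 19989663 (297 bp, score 109.96) with S2101 and at 19989048 to 19989780 (733 bp, score 398.45) with vehicle. H3K4me2 stood at 19989216 to 19989653 (438 bp, score 181.15) with S2101 and at 19988832 to 19989717 (886 bp, score 214.91) with vehicle. Each S2101 peak lay wholly inside the vehicle peak of its mark, with length ratios of 0.405 for H3K4me1 and 0.494 for H3K4me2 at this site. In S2101 cells 287 of the 297 H3K4me1 bases were also under H3K4me2, and in vehicle cells 670 of 733. The site carried no H3K4me3 in either treatment, and the nearest S2101 H3K4me3 peak lay 3878 bp or more from its peaks in that treatment. Beyond 19996971 the window held no peak.

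Des was the most heavily marked of the 3 loci. With S2101, peaks covered 9.19% of the window for H3K4me1, 10.3% for H3K4me2 and 13.1% for H3K4me3, more than in 96.1%, 97.9% and 96.4% of the 50 kb stretches that hold the mark in that list. With vehicle, they covered 19.0%, 20.8% and 11.4% for these marks, more than in 97.0%, 98.8% and 95.2% of such stretches. Des thus stood high among stretches in both treatments, while H3K4me1 and H3K4me2 covered fewer bases with S2101.

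A pair of strong H3K4me3 peaks at Des were nearly the same in both treatments. The wider ran from 75356569 to 75360535 (3967 bp) with S2101 and from 75356649 to 75360429 (3781 bp) with vehicle, 80 bp and 106 bp further at its edges. The other ran from 75377982 to 75379877 (1896 bp) with S2101 and from 75378005 to 75379915 (1911 bp) with vehicle. All 4 had a score of 3100, a value at which many peaks of both lists stand, so that scores do not rank them. A weaker H3K4me3 peak at 75341256 to 75341937 (682 bp, score 172.78) was listed with S2101 only, and 7.16% of its list scored lower. It lay entirely under vehicle H3K4me2, and 359 bp of it under S2101 H3K4me2. That peak accounted for 682 of the 853 bp by which S2101 H3K4me3 exceeded vehicle at Des.

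H3K4me2 at Des was shorter and split with S2101. Over the whole lists, H3K4me2 peaks were narrower with S2101 too, at a median of 552 bp against 1342 bp with vehicle. How often peaks were split over the lists was not counted. Around the wider H3K4me3 peak, S2101 cells had 3 H3K4me2 peaks, at 75357209 to 75357590 (382 bp), 75358171 to 75358510 (340 bp) and 75358512 to 75360095 (1584 bp, score 1249.98), which covered 2306 bp. Vehicle cells had a single peak there, from 75356247 to 75361596 (5350 bp, score 2560.2), wider than 99.2% of its list. The outer edges with S2101 lay 962 bp and 1501 bp inside those with vehicle, over a span of 2887 bp, and so the S2101 H3K4me2 lay inside the H3K4me3 peak whereas the vehicle H3K4me2 extended beyond it on either side.

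The same shortening was seen at the other shared Des sites. At the low-coordinate end S2101 had 3 peaks, of 443 bp, 377 bp and 553 bp, covering 1373 bp, within a single vehicle peak at 75340292 to 75342366 (2075 bp, score 737.32). At the high-coordinate end S2101 had 2 peaks, of 519 bp and 941 bp, covering 1460 bp, within a single vehicle peak at 75378002 to 75380031 (2030 bp, score 1394.19). The remaining vehicle peak, at 75366136 to 75367085 (950 bp, score 207.81), had no S2101 counterpart. In S2101 cells 80.3% of Des H3K4me2 bases lay under H3K4me3, against 54.7% in vehicle cells. Read the other way, 63.0% of Des H3K4me3 bases had H3K4me2 with S2101 and 100% with vehicle. These shares were not taken over the whole lists, so whether they are particular to Des was not tested. The marks also come from different experiments.

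H3K4me1 at Des numbered 8 peaks with S2101 and 11 with vehicle, of 241 to 1800 bp and 350 to 3226 bp. The strongest pair at the low-coordinate end was found in both treatments. One stood at 75339933 to 75340867 (935 bp, score 324.62) with S2101 and at 75339887 to 75340908 (1022 bp, score 681.4) with vehicle. The other stood at 75342104 to 75343903 (1800 bp, score 488.95) with S2101 and at 75341824 to 75345049 (3226 bp, score 1762.49) with vehicle, and was among the widest of its list in each, with 99.8% and 99.7% of peaks narrower. The S2101 peaks of this pair flank the S2101-only H3K4me3 peak, which ended 166 bp before that of 1800 bp and began 388 bp after that of 935 bp, whereas the vehicle peak of 3226 bp overlapped it by 114 bp.

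Near the wider Des H3K4me3 peak the listed H3K4me1 peaks differed. S2101 cells had H3K4me1 on its low side, at 75355610 to 75355974 (365 bp, score 174.37), 594 bp from the S2101 H3K4me3 peak, and the next S2101 H3K4me1 peak followed after a gap of 10370 bp. Vehicle cells had H3K4me1 at 75353590 to 75354435 (846 bp, score 287.19), 75356183 to 75356535 (353 bp, score 138.73), 75359757 to 75360465 (709 bp, score 258.35) and 75363153 to 75363689 (537 bp, score 185.39). None of these 5 peaks had a counterpart. Over the whole lists, 72.5% of S2101 and 33.0% of vehicle H3K4me1 peaks had one. The S2101 peak of 365 bp lay 208 bp from the vehicle peak of 353 bp. The second vehicle peak ended 113 bp before the vehicle H3K4me3 peak, and the third overlapped its high-coordinate end by 673 bp, so vehicle H3K4me1 stood on both sides of H3K4me3. Further along, H3K4me1 ran from 75366345 to 75366620 (276 bp, score 147.11) with S2101 and from 75366159 to 75367015 (857 bp, score 492.57) with vehicle. The S2101 peaks at 75346065 to 75346379 (315 bp, score 145.49), 75367290 to 75367599 (310 bp, score 136.41) and 75377639 to 75377879 (241 bp, score 106.3) had no counterpart. The vehicle peaks at 75367795 to 75368156 (362 bp), 75376356 to 75377171 (816 bp) and 75381357 to 75381706 (350 bp) had none either. In order of position, these S2101 peaks lay 1015 bp, 195 bp and 139 bp from the nearest vehicle H3K4me1 peak. These vehicle peaks lay 195 bp, 467 bp and 2983 bp from the nearest S2101 H3K4me1 peak. Beside the narrower H3K4me3 peak, H3K4me1 began at 75378019 in both treatments and was 355 bp with S2101 and 441 bp with vehicle.

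**Figure D4:**
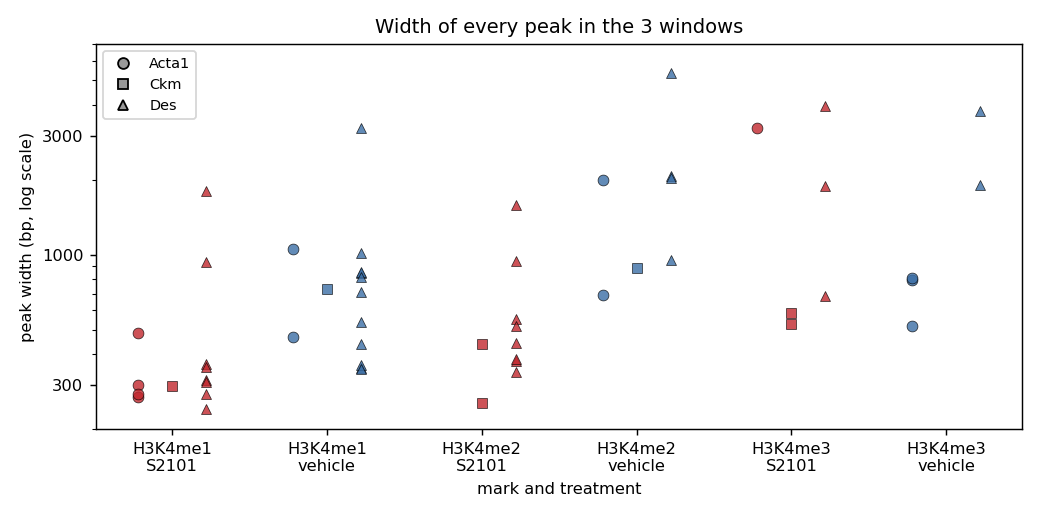
Width of each of the 55 peaks (bp, log axis) by mark and treatment, S2101 left of vehicle, with a symbol for each locus. H3K4me1 and H3K4me2 peaks are mostly narrower with S2101, at medians of 310 and 440.5 bp against 721 and 1995 bp with vehicle, and the widest H3K4me3 peaks, of 1896 bp and more, are the pair shared by both treatments at Des and the S2101 Acta1 peak. Over the whole lists, H3K4me1 and H3K4me2 medians are also lower with S2101, at 384 and 552 bp against 535 and 1342 bp with vehicle.

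Counted over all 3 loci, counterparts were found for 7 of 13 S2101 and 6 of 14 vehicle H3K4me1 peaks, where the whole lists gave 72.5% for S2101 and 33.0% for vehicle. For H3K4me2 they were found for 9 of 10 S2101 and 4 of 7 vehicle peaks, against 96.1% for S2101 and 74.2% for vehicle. For H3K4me3 they were found for 3 of 6 S2101 and 5 of 5 vehicle peaks, against 91.6% for S2101 and 98.7% for vehicle. The H3K4me3 peaks without a counterpart were the Ckm pair and the 682 bp peak at Des, all with scores under 200. At a score of 200 or more, counterparts were found for 3 of 3 S2101 H3K4me3 peaks (93.6% of the list). With lists of equal length they were found for 3 of 4 (95.2%). With so few peaks, neighbours of each other, these shares were not tested against the lists, and a reciprocal overlap of 50% left counterparts for 0 of 10 S2101 and 0 of 7 vehicle H3K4me2 peaks (23.4% and 26.7% of the S2101 and vehicle lists) and for 2 of 5 vehicle H3K4me3 peaks (93.8% of the list).

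A covered length with S2101 of at most 0.5 of that with vehicle was found at 2 of 3 loci for H3K4me1 (Ckm at 0.405 and Des at 0.483), and in 80.6% of 50 kb stretches with a vehicle peak of that mark. For H3K4me2 it was found at 2 of 3 loci (Acta1 and Des), and in 57.7% of stretches. For H3K4me3 it was found at 0 of the 2 loci with a vehicle peak, and in 1.02% of stretches. Median ratios over stretches were 0.187 for H3K4me1, 0.456 for H3K4me2 and 1.06 for H3K4me3. Lower H3K4me1 and H3K4me2 coverage with S2101 at these genes was thus in the direction of the median stretch, and the H3K4me1 ratios of all 3 loci were above the median. With lists of equal length, the H3K4me1 median was 0.390, with Acta1 at 0.875, Des at 0.544 and Ckm at 0.405, where 51.7% of stretches had a lower ratio. At a score of 200 or more, the H3K4me1 median was 0, with Acta1 at 0.320, Ckm at 0 and Des at 0.345. For H3K4me2 the Acta1 ratio was 0, as in the 17.5% of stretches given above, and the Ckm ratio was above that of 95.7% of stretches but was 0 at a score of 200 or more.

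**Figure D5:**
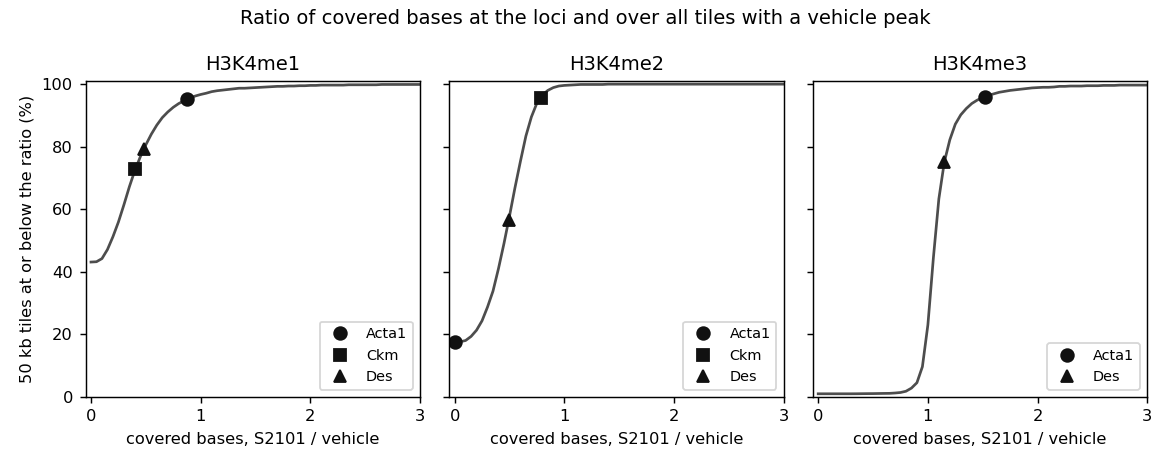
Share of 50 kb stretches with a vehicle peak (%, vertical axis) whose ratio of covered bases, S2101 over vehicle, is at or below the value on the horizontal axis, 1 panel per mark, with the loci as symbols on the curve. Acta1 stands at 0 for H3K4me2 and at 1.52 for H3K4me3, and Ckm is missing from the H3K4me3 panel because vehicle covers 0 bp there.

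The windows are wider than the genes and can hold peaks of neighbours. In the RefSeq gene table of GRCm38.p6, the nearest protein-coding genes by order are Ccsap and Nup133 for Acta1, Klc3 and Mark4 for Ckm, and Dnpep and Speg for Des. The table's build differs from that of the peaks, so each peak was tied to a window and not to a promoter or gene body.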

How the data were processed

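Peak lists of 6 of the 12 samples were used, those of the 3 methylation marks under each treatment; input and pan-H3 libraries were not used here. Per the file headers, the authors called peaks with MACS in Galaxy for each library, and the deposited score in the last column was taken as the caller's own value for a peak, since the headers do not name it. Bowtie2, deepTools and build mm9 are named per the submitters' processing notes. The sources used here do not state the caller's version or settings, how duplicates were treated, the control or the reads per library, so no value was scaled for depth, and fewer reads or another calling outcome can shorten, split or remove peaks.

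Covered bases were counted inside each window after merging the peaks of a list, in 1-based mm9 coordinates. A counterpart is an overlap of at least 1 bp. Backgrounds were whole lists and consecutive 50 kb stretches with a peak of the mark; the windows are 45, 55 and 50 kb long and do not sit on their edges. The limits of 0.5 and 1.5 times vehicle are folds, not tests; the 1.5 limit and the backgrounds written for particular peaks were chosen after these data had been seen. The windows, the gene lists and the other comparisons were chosen with earlier results of these data known. All peaks of the windows were counted, as the rule for named items was the 3 genes; a longer list of contractile genes was not used, because it needs an mm9 annotation. Promoters came from RefSeq, GRCm38.p6, matched by symbol for all 3 genes. Interval functions were tested on simulated lists against bedtools 2.31.1. Python 3.11.15, numpy 2.4.6, pandas 2.3.3 and matplotlib 3.10.9 were used. Alternatives were a score of 200 or more, lists of equal length, windows 10 kb shorter or longer at each edge, full peak widths, a reciprocal overlap of 50%, and 25 kb stretches.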

Additional observations from a re-analysis of the deposited data

How the results depend on the processing

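No paired analysis was possible because each mark and treatment has 1 library and the labels give no replicate numbers; for the same reason no library could be left out. The direction of the covered-base difference reversed in none of the 9 combinations of locus and mark under the 5 alternatives. Among these, full peak widths could change no value, because every peak lay wholly inside a window. At Ckm the H3K4me3 difference was 0 bp with lists of equal length and at a score of 200 or more. Keeping only peaks of that score moved the 3-locus ratio to 0.317 for H3K4me1 and 0.271 for H3K4me2 and left H3K4me3 at 1.40. S2101 H3K4me3 then exceeded vehicle by 2445 bp at Acta1 and 171 bp at Des, so Acta1 made up most of the difference. The Des ratio was then 1.03, against a median of 1.06 over 50 kb stretches. With windows 10 kb shorter at each edge, the Des H3K4me3 difference was 186 bp. Counterparts at a score of 200 or more were found for 3 of 3 S2101 and 3 of 10 vehicle H3K4me1 peaks (80.3% and 22.7% of the S2101 and vehicle lists). They were found for 4 of 4 S2101 H3K4me2 peaks (97.6%), and for 3 of 3 S2101 and 3 of 3 vehicle H3K4me3 peaks (93.6% and 99.5%). Of 50 kb stretches with vehicle H3K4me3, 0.499% then stood at or under 0.5 of vehicle. With a reciprocal overlap of 50%, counterparts were found for 3 of 13 S2101 and 3 of 14 vehicle H3K4me1 peaks (30.4% and 15.5% of the lists), 0 of 10 S2101 and 0 of 7 vehicle H3K4me2 peaks (23.4% and 26.7%), and 2 of 5 vehicle H3K4me3 peaks (93.8%). Other window edges gave H3K4me3 ratios of 1.38 and 1.36. Lists of equal length gave 3-locus ratios of 0.581 for H3K4me1, 0.359 for H3K4me2 and 1.25 for H3K4me3. For H3K4me3 this was the lowest ratio of any setting. The cause of these shifts was not tested, other than that fewer peaks enter at a higher score. Depth is unknown and limits every statement about a missing peak.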

Other observations

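Just outside the windows, 10 kb more on each side of Ckm brought H3K4me3 to 2602 bp with S2101 and 1324 bp with vehicle, and H3K4me2 to 1442 bp with S2101 and 2163 bp with vehicle, so that the Ckm surroundings do hold H3K4me3 in both treatments. Widening the Acta1 and Des windows in the same way added no H3K4me2 or H3K4me3 with either treatment; it added H3K4me1, to 1992 bp with vehicle at Acta1, where S2101 stayed at 1333 bp, and to 5300 bp with S2101 and 11244 bp with vehicle at Des.

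Within a treatment, the bases under at least 1 of the 3 marks came to 4569 with S2101 and 4824 with vehicle at Acta1, to 1563 with S2101 and 949 with vehicle at Ckm, and to 11317 with S2101 and 16468 with vehicle at Des. At Ckm the order turned with the list: 704 bp with S2101 and 949 bp with vehicle in lists of equal length, and 0 bp with S2101 and 949 bp with vehicle at a score of 200 or more. At Acta1 that score gave 3723 bp with S2101 and 3518 bp with vehicle. These totals come from 1 library per mark and treatment.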
